A study of Mus musculus with 21 samples.

Results

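Unstimulated mouse bone-marrow-derived macrophages (BMDMs) of a 48 h set were compared with those of a 4 h set. The comparison held 11 of the 21 libraries of the series, 5 of the 48 h set and 6 of the 4 h set. For BMDMs, precursors from bone marrow are cultured until they become macrophages. Here the marrow came from tibia and femur of C57bl/6 mice of 12 weeks and was cultured for 6 days with L929-conditioned medium, a source of M-CSF, the growth factor that macrophages need to survive and differentiate. No library of either arm received LPS (lipopolysaccharide, the bacterial product given to the stimulated cultures). The 4 h arm held untreated controls (columns numbered 1 and 3 of the count table), cells given dimethyl malonate (DMM 1 and 3) and cells given succinate (succinate 1 and 3). The 48 h arm held untreated control 4, DMM 2 and 4, and succinate 2 and 4. Succinate is a substrate of the tricarboxylic acid (TCA) cycle, and DMM releases malonate, which inhibits succinate dehydrogenase. Treatment lasted 3 h before the point at which other cultures received LPS for 4 or 48 h. The set of an unstimulated column is not written in its name and was inferred from its number, 1 and 3 for the 4 h set and 2 and 4 for the 48 h set. The arms therefore differ by the hours in culture that the sets are named for, and by anything else that differed between the sets, which cannot be told apart. The labels give no doses, no sex of the mice and no word on medium changes over the 48 h. The labels do not say whether libraries came from separate animals or cultures, so each p-value reflects the variation among these libraries alone, which may be technical.

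Macrophages keep surveying their surroundings when no microbial signal is present. In that state they take up debris through scavenger, complement and Fc receptors, secrete complement component C1q, present peptides on MHC class II, recycle iron and lipid, and adjust amino acid and sterol synthesis to what the medium supplies. ATF4, a transcription factor that is translated more when amino acids run short or proteins misfold, raises amino acid transporters, tRNA synthetases and serine synthesis; p53 raises cell cycle inhibitors such as p21.

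The 11 libraries held 662186 to 1223856 counts. All 15 measured defining macrophage markers were detected and tested, with the lysozyme Lyz2 and the M-CSF receptor Csf1r among the abundant ones. Xist stood at 47 to 145 counts and the 4 Y-linked genes measured at 2 counts or fewer in every library. The DMM libraries of the 4 h set stood between the arms. On a scale where 0 is the mean of the other 4 h libraries and 1 the mean of the other 48 h libraries, each library left out of its own scale, the median called gene of DMM 3 lay at 0.58 and that of DMM 1 at 0.41. The control and succinate libraries of the 4 h set lay at -0.23 to 0.04 and the 48 h libraries at 0.72 to 1.13. DMM 3 was nearer the 48 h mean for 58.0% of the genes called without it, and its mean correlation over genes was 0.948 with the 48 h libraries and 0.932 with the other 4 h libraries. DMM 1 also stood far from all others on the second principal component. Counts of list members without both 4 h DMM libraries are therefore given wherever they differ from those with all 11 libraries.

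**Figure D1:**
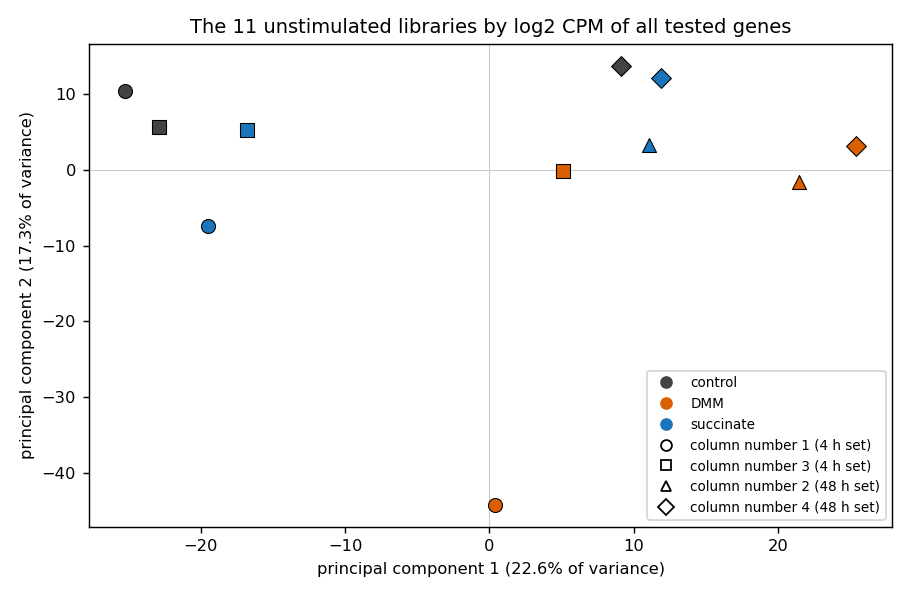
Principal components of the 11 unstimulated libraries, from log2 CPM of all tested genes; colours give the treatment and symbols the column number. The 4 control and succinate libraries of the 4 h set sit at -25.2 to -16.8 on the first component and the 5 libraries of the 48 h set at 9.13 to 25.4, with DMM 3 at 5.11 and DMM 1 at 0.38, the latter at -44.2 on the second component.

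The set difference was fitted over 6400 genes by edgeR's quasi-likelihood method with treatment as a covariate, and 366 of them passed an adjusted p of 0.05 (5.72%). Of these 204 rose in the 48 h set (3.19% of genes tested) and 162 fell (2.53%). Values are log2 fold changes of the 48 h over the 4 h set ± SE, and levels are CPM, counts scaled by library size and composition. The median change of called genes was 0.85 in size, and 66 of those that rose and 60 of those that fell did so by more than 2-fold. The arms did not overlap for 218 genes (3.41%), 127 higher (1.98%) and 91 lower (1.42%) at 48 h, of which 94 and 66 were called. The count of 366 called genes was 522 without DMM 3, 463 without both 4 h DMM libraries, and 533 without any DMM library. It was 186 without control 4 and 208 without succinate 4, and DESeq2 called 219.

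Among called genes with arms that did not overlap and at least 10 CPM in the higher arm, the steepest rises were in membrane proteins of myeloid cells, a chemokine and an iron exporter. Tmem176b, which encodes a membrane-spanning protein of myeloid cells, had a lowest value of 7.04, a median of 27.2 and a highest value of 56.3 CPM in the 4 h set. It stood at 114, 302, 343, 254 and 282 CPM in control 4, DMM 2, DMM 4, succinate 2 and succinate 4, the order used for all 48 h values below. All 48 h libraries lay above all 4 h libraries, and the gene rose by 3.17 ± 0.18 (adjusted p = 6.44e-15). Its neighbour Tmem176a rose by 2.61 ± 0.31. Exons of this pair overlap on opposite strands, and the labels do not tell whether counting used strand, so reads of the overlap cannot be told apart. Ms4a7, a tetraspan membrane protein of macrophages, stood at 152 to 296 CPM (median 185) in the 4 h set and at 913, 693, 843, 975 and 1107 CPM in the 48 h set. The highest 4 h value belonged to DMM 3, and the arms did not overlap (2.19 ± 0.17, adjusted p = 1.24e-10).

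Pf4, the chemokine CXCL4 of platelets and some macrophages, was at 0 counts in both 4 h controls and at most at 9.02 CPM in the 4 h set. In the 48 h set it stood at 16.0, 46.6, 77.2, 10.9 and 13.3 CPM. Both DMM libraries were highest, and no 48 h library reached down to the 4 h range (3.05 ± 0.36, adjusted p = 2.61e-07). The haemoglobin genes, Ppbp and Gp9, other transcripts of platelets and red cells, were at 0 in all 11 libraries, and of the 14 markers of those lineages 13, all but Pf4, never exceeded 3 counts. Slc40a1, the iron exporter ferroportin, stood at 0.00 to 7.89 CPM (median 4.66) in the 4 h set and at 11.4, 43.2, 50.5, 13.4 and 9.77 CPM in the 48 h set. Both 48 h DMM libraries were highest and the arms did not overlap, though DMM 3 and succinate 4 (7.89 and 9.77 CPM) lay close together, and it rose by 2.32 ± 0.35 (adjusted p = 1.61e-05). The leukocyte-specific transcript Lst1 (2.38 ± 0.30), the Src-like adaptor Sla (1.89 ± 0.31), the calcium-binding Aif1 (1.69 ± 0.27) and the fractalkine receptor Cx3cr1 (1.65 ± 0.19) rose with arms that did not overlap. Tifab, an inhibitor of the signalling adaptor TIFA, rose from a median of 9.43 CPM to 19.8 to 30.5 CPM (adjusted p = 0.000881). The arrestin-like Arrdc3 rose on 18 counts in the 4 h arm and 57 in the 48 h arm (adjusted p = 0.0228), and its call was lost without succinate 3, control 4, DMM 4 or succinate 2 (adjusted p from 0.0592 to 0.0815).

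**Figure D2:**
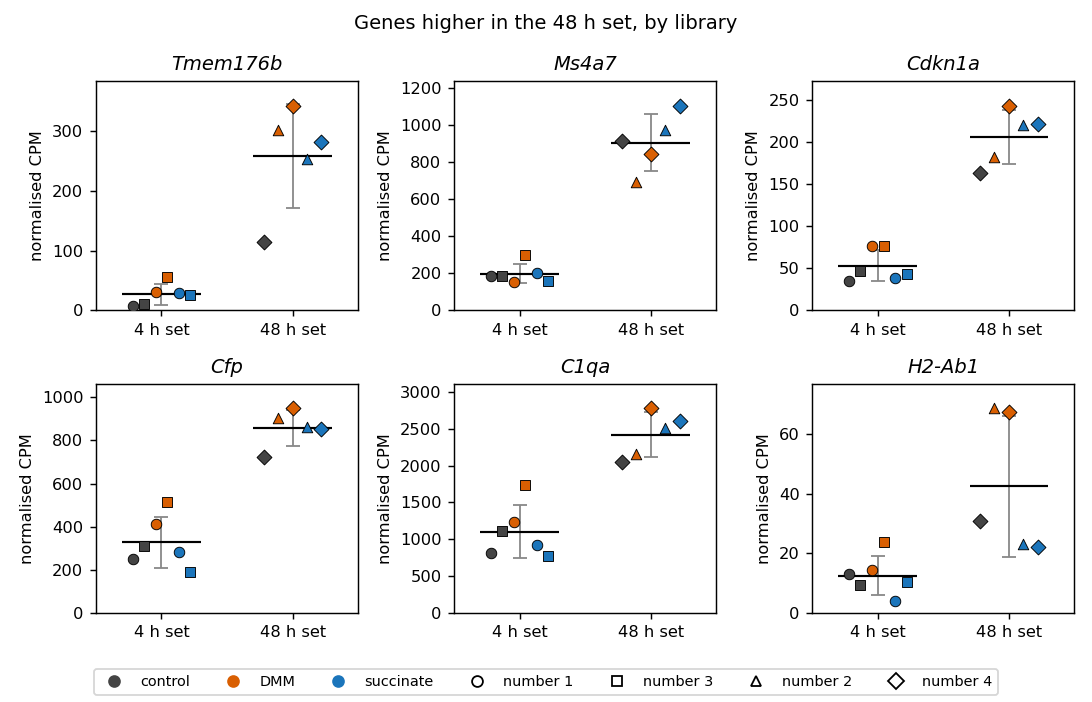
Levels of 6 genes that rose, in CPM on linear axes from 0, in the 6 libraries of the 4 h set and the 5 of the 48 h set; lines are means and bars are SD over libraries, colours give the treatment and symbols the column number. For all but H2-Ab1 every 48 h library lies above every 4 h library; H2-Ab1 overlaps because succinate 4 (22.2 CPM) and succinate 2 (23.1 CPM) lie below DMM 3 (23.7 CPM).

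Osmolyte transporters and osteopontin were among the genes that fell most within the same limits. Spp1, which encodes the secreted matrix protein osteopontin, was the most abundant transcript of all 4 control and succinate libraries of the 4 h set. It took 6.43% to 13.3% of all counts in the 4 h set (median 9.04%) and 3.56%, 2.18%, 2.29%, 3.57% and 3.93% in the 48 h set. The arms did not overlap (two-sided exact permutation test over libraries, p = 0.00216, the smallest that this design allows, adjusted p = 0.00648 over 6 library measures). In CPM it fell by 1.59 ± 0.13 on the log2 scale (adjusted p = 2.36e-10). Slc6a12, the betaine transporter, stood at 86.8 to 351 CPM (median 233) in the 4 h set and at 40.03, 32.2, 41.5, 46.1 and 48.0 CPM in the 48 h set. The 4 h DMM libraries were the lowest of their arm, at 92.0 and 86.8 CPM, and the arms did not overlap (-2.17 ± 0.24, adjusted p = 9.51e-06). Slc5a3, the inositol transporter, stood at 197 to 787 CPM (median 574) against 19.5 to 185 CPM (-2.20 ± 0.18, adjusted p = 2.36e-10). Its exons overlap those of Mrps6, a mitochondrial ribosomal protein gene on the same strand, which fell by 1.43 on the log2 scale, so which of them fell cannot be told apart. With the glutamine transporter Slc38a2 (-0.72 ± 0.14), 3 of 9 osmolyte-response genes fell (2.53% of all genes fell), the same count without any 1 library and without the 4 h DMM libraries.

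Other genes among the 15 lowest were regulators of signalling and transcription. Id2, an inhibitor of helix-loop-helix transcription factors, stood at 39.7 to 96.3 CPM (median 68.8) in the 4 h set and at 34.3, 16.1, 31.7, 26.7 and 23.98 CPM in the 48 h set. All 48 h values lay below all 4 h values (-1.36 ± 0.20, adjusted p = 1.46e-05). The polo-like kinase Plk2 (-1.36 ± 0.21), the CD200 receptor family member Cd200r4 (-1.54 ± 0.17), the Ras exchange factor Rasgrp3 (-1.50 ± 0.18), the helix-loop-helix factor Tal2 (-1.75 ± 0.31) and the 4-1BB ligand Tnfsf9 (-1.51 ± 0.34) also fell. So did Acss2, which makes acetyl-CoA from acetate (-1.40 ± 0.33), though its exons overlap those of Gss and Ggt7 on the other strand. The phosphatase Dusp4 fell by 1.66 on the log2 scale (adjusted p = 0.00462), and this call was lost without control 4 (adjusted p = 0.0806). St7l (-1.47 ± 0.42) overlaps Capza1 and lost its call when 8 of the 11 libraries were left out 1 at a time.

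**Figure D3:**
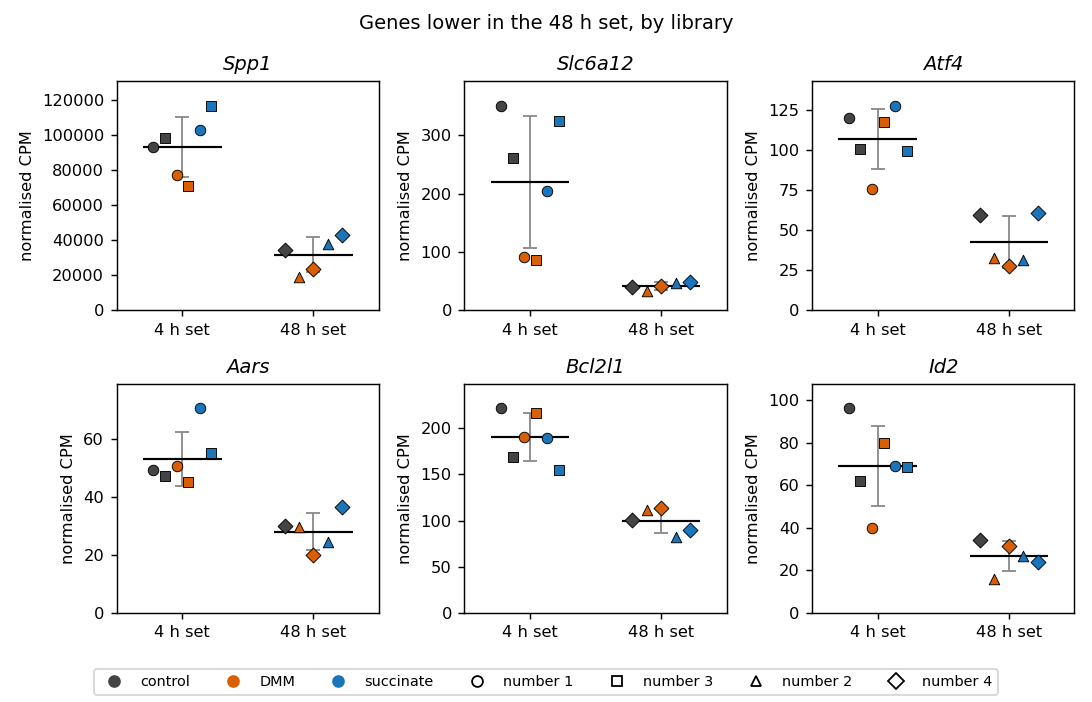
Levels of 6 genes that fell, in CPM on linear axes from 0, drawn as in the plot of genes that rose. In each panel every 48 h library lies below every 4 h library, Spp1 at 19107 to 42749 CPM against 70589.5 to 116543 CPM.

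Genes of the amino acid response were lower in the 48 h set. Of 19 tested genes listed as ATF4 targets or amino acid metabolism, 9 fell and none rose (2.53% of all genes fell). Of the 9, 7 had arms that did not overlap. Over all genes tested 1.42% were lower without overlap, and 66 of the 162 genes that fell had such arms. The list's median was -0.80, against -0.02 over all genes tested. Atf4 itself stood at 75.8 to 128 CPM (median 109) in the 4 h set and at 59.5, 32.2, 27.7, 31.6 and 60.4 CPM in the 48 h set. Every 48 h library was below every 4 h library (-1.32 ± 0.18, adjusted p = 5.98e-06). The alanyl-tRNA synthetase Aars stood at 45.1 to 70.4 CPM (median 49.9) against 29.7, 29.7, 19.8, 24.3 and 36.4 CPM (-0.90 ± 0.18, adjusted p = 0.00138). Its exons overlap those of Exosc6 on the same strand, so reads of the overlap cannot be told apart. The seryl-tRNA synthetase Sars fell by 0.60 on the log2 scale, though not without control 4 (adjusted p = 0.054). The mitochondrial folate enzyme Mthfd2 fell by 0.87 and the shared chain of amino acid exchangers Slc3a2 by 0.70 on the log2 scale. Atf3, a stress-induced factor of the same family, stood at 45.1 to 132 CPM (median 85.0) against 46.9, 40.7, 36.6, 43.7 and 65.7 CPM, and its arms overlapped because DMM 1 lay below control 4 and succinate 4 (-0.86 ± 0.17, adjusted p = 0.0014). The serine hydroxymethyltransferase Shmt2 (-1.30 ± 0.32) overlaps Ndufa4l2 and lost its call without control 4 (adjusted p = 0.0732). The asparagine synthetase Asns (-0.80 ± 0.32, adjusted p = 0.146) did not pass the test. The count of 9 was 6 without control 4, and 8 without both 4 h DMM libraries.

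Promoters of this list were searched for TGATGNAA on both strands, the response element bound by ATF4 with CCAAT/enhancer-binding proteins, in the 250 bases before each start in RefSeq (build GRCm38.p6). It occurred in 6 of the 16 list members with an entry (37.5%), in 2 of the 7 called ones, and in 3.45% of all 32851 promoters in the table. A list member counted if any of its promoters matched, while the last share is of single promoters of all genes, tested or not. The shares are therefore not like for like. The match of the called gene Atf3 is shown because it fell with Atf4; capitals mark the match, which is a match of letters only. The Atf3 stretch lies on chr1:191183425-191183454, minus strand, outside annotated exons.
Atf3: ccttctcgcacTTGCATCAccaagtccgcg

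Genes of antigen presentation were higher in the 48 h set. Of 6 tested genes of MHC class II and co-stimulation, 4 rose and none fell (3.19% of all genes rose), with a median of 1.15; the count was 3 without both 4 h DMM libraries. Cd74, the invariant chain that guides class II molecules, stood at 88.0 to 167 CPM (median 103) in the 4 h set and at 186, 329, 365, 205 and 243 CPM in the 48 h set. The arms did not overlap, and both DMM libraries were highest in the 48 h set (1.14 ± 0.14, adjusted p = 7.89e-07). The alpha chain gene H2-Aa stood at 2.69 to 18.0 CPM (median 8.25) against 20.6, 60.2, 58.4, 18.2 and 26.6 CPM, its arms separated by less than 1 CPM (1.79 ± 0.25, adjusted p = 6.06e-06). The beta chain gene H2-Ab1 stood at 3.99 to 23.7 CPM (median 11.6) against 30.9, 68.7, 67.3, 23.1 and 22.2 CPM (1.62 ± 0.23, adjusted p = 6.07e-06). Its arms overlapped between DMM 3 and the 48 h succinate libraries. In both genes DMM 2 and 4 stood above control 4 and both succinate libraries. H2-DMa, which loads peptide, rose by 1.04, overlaps Brd2, and lost its call when any of 7 libraries was left out (adjusted p from 0.0575 to 0.113). Dendritic cells and B cells also carry MHC class II: the dendritic cell genes Ccr7, Clec9a and Cd209a and the B cell gene Cd79a were at 0 in all 11 libraries. Of 13 dendritic cell markers 10 never exceeded 3 counts, and the list summed to 125 to 267 CPM in the 4 h set and 175 to 265 CPM in the 48 h set. Most of this sum was Bst2, at 71 to 229 counts, and no other member exceeded 7 counts. Of 12 B cell markers 10 never exceeded 3 counts, and the list summed to 132 to 218 CPM and 189 to 278 CPM, most of it Ighm and Blnk. The transcript of Ighm, the immunoglobulin mu chain, was present in every library, at 62.3 to 160.0 CPM (median 91.4) in the 4 h set and 138 to 186 CPM in the 48 h set, and rose by 0.70 ± 0.16. Their part in the rise of class II genes was not tested. In bulk libraries a change in the share of cells of a type and a change in RNA per cell cannot be told apart.

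The bases before the start of H2-Aa, the called class II gene with the steepest rise, are printed with the CCAAT box and the cyclic AMP response element TGACGTCA in capitals. These letters lie in the stretch on chr17:34287824-34287933, minus strand (RefSeq, GRCm38.p6), outside annotated exons. CCAAT or its complement ATTGG occurred in 33.8% of all promoters in the table and TGACGTCA in 1.55%. Too few of the class II genes had an entry (4 of 6) for a share of the list.
H2-Aa: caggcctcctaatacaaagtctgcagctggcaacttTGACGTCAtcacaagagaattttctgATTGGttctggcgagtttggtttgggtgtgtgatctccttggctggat

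Of 11 tested complement genes 6 rose and none fell (3.19% of all genes rose), with a median of 0.59. Cfp, which encodes properdin, the stabiliser of the alternative pathway, stood at 190.0 to 513 CPM (median 298) in the 4 h set and at 724, 905, 949.7, 863 and 853 CPM in the 48 h set. Every 48 h library was above every 4 h library (1.41 ± 0.16, adjusted p = 1.25e-07). C1qa, a chain of the initiator C1q, stood at 765 to 1735 CPM (median 1019) against 2045, 2159.5, 2779, 2506 and 2608 CPM (1.14 ± 0.16, adjusted p = 5.98e-06). The other chains rose by 0.59 ± 0.14 for C1qb and by 0.97 ± 0.19 for C1qc, and C3 rose by 1.17 ± 0.26. C1qc lost its call without succinate 3 (adjusted p = 0.0966) or control 4 (0.0528). Itgam, a chain of complement receptor 3, rose by 0.65 ± 0.14, but not without control 4 (adjusted p = 0.0929). The count was 4 without control 4 and 6 without both 4 h DMM libraries.

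Some receptors and adhesion molecules of the macrophage surface rose, where 3.19% of all genes rose and 2.53% fell. Of 23 scavenger and phagocytic receptors 4 rose, among them Tlr2, the receptor of bacterial lipopeptides (1.27 ± 0.17), the Fc receptor Fcgr3 (0.93 ± 0.17) and the lipid scavenger Cd36 (0.73 ± 0.15). This count was 8 without DMM 3 or DMM 2, 7 without both 4 h DMM libraries, 5 without succinate 2, and 3 without control 4 or succinate 4. Without succinate 3, 6 rose and 2 fell. The chemokine and scavenger Cxcl16 rose by 0.80 ± 0.15; its exons overlap Zmynd15. Of 15 integrin and adhesion genes 4 rose, with the selectin ligand Selplg (0.97 ± 0.14), the tetraspanin Cd81 (0.88 ± 0.14) and the immunoglobulin-family protein Emb (0.81 ± 0.14). Of the 15 defining macrophage markers 3 rose, Emr1, Aif1 and Itgam, and 1 fell, the cathepsin Ctss (-0.54 ± 0.14, adjusted p = 0.0177). The call of Ctss was lost without control 3, control 4 or succinate 2 (adjusted p from 0.0574 to 0.105). The count that rose was 6 without DMM 3, 5 without DMM 2 and 2 without control 4; without both 4 h DMM libraries 4 rose and none fell. Emr1, the gene of F4/80, stood at 1069.8 to 1897 CPM (median 1409) against 2845, 2385, 2589.9, 3389.9 and 3782 CPM (1.04 ± 0.16, adjusted p = 2.27e-05). Csf1r (0.38 ± 0.15, adjusted p = 0.15) and the mannose receptor Mrc1 (adjusted p = 0.0954) did not pass the test. Of 15 genes of M-CSF signalling and lineage 2 rose and 1, Id2, fell; 3 fell without DMM 3, DMM 2 or both 4 h DMM libraries. The transcription factor Maf rose by 0.94 ± 0.18, and Csf2rb, the shared receptor chain for GM-CSF, by 0.77 ± 0.20; the latter call was lost without succinate 1, succinate 3 or succinate 2 (adjusted p from 0.06 to 0.0969).

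Some markers of monocytes and of other cells differed between the arms, where 3.19% of all genes rose and 2.53% fell. Of 5 tested monocyte and immature myeloid markers 3 rose, Ms4a6b (1.24 ± 0.15), Clec4a1 (1.41 ± 0.27) and F13a1 (1.68 ± 0.35), and Ifitm6 fell by 1.06 on the log2 scale, a call lost without succinate 3 (adjusted p = 0.0768) or control 4 (0.083). The fifth tested marker, the chemokine receptor Ccr2, did not pass after adjustment. It held 0, 5, 20, 32, 5 and 14 counts in control 1 and 3, DMM 1 and 3, and succinate 1 and 3. In the 48 h set it held 11, 63, 43, 9 and 24 counts. By edgeR all 5 tested markers had an unadjusted p under 0.05. Ly6c2 and Plac8 were at 0 in all libraries, and 12 of the 18 listed never exceeded 3 counts. The list's summed level was 106 to 197 CPM in the 4 h set and 209 to 362 CPM in the 48 h set. Neutrophil markers, of which 11 of 15 never exceeded 3 counts, summed to 7.04 to 28.7 CPM and 10.7 to 41.7 CPM, with S100a8, Ly6g, Ltf and Camp at 0; Mmp8 (1.78 ± 0.57, adjusted p = 0.0584) did not pass the test. The interleukin-7 receptor Il7r was the only tested marker of T and NK cells (-1.43 ± 0.37, adjusted p = 0.0138), and its call was lost without succinate 3, control 4, succinate 2 or succinate 4 (adjusted p from 0.0617 to 0.116); Cd3e, Trac and Nkg7 were at 0, and the 15 markers summed to 5.35 to 34.1 CPM against 4.76 to 9.81 CPM. Of the fibroblast list 14 of 17 genes never exceeded 3 counts, the list summed to 3.02 to 17.1 CPM against 7.80 to 26.2 CPM, and Acta2 (1.71 ± 0.63, adjusted p = 0.115) did not pass. Their part in the set difference was not tested.

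Some genes of redox defence and iron handling rose. Of 24 tested NRF2 and glutathione genes 7 rose and none fell (3.19% of all genes rose), with a median of 0.39. Cat, which encodes the peroxide-splitting enzyme catalase, stood at 175 to 379.7 CPM (median 277) in the 4 h set and at 626, 637, 633, 721 and 681 CPM in the 48 h set. All 48 h values lay above all 4 h values (1.28 ± 0.15, adjusted p = 4.64e-07). Blvrb, the reductase of biliverdin and flavins, stood at 75.3 to 193 CPM (median 102) against 318, 325, 362, 389 and 397 CPM (1.54 ± 0.18, adjusted p = 5.58e-07). The glutathione synthesis subunit Gclm rose by 1.30 ± 0.28. The count of 7 fell to 3 without succinate 3 or DMM 4 and to 4 without succinate 1 or succinate 4, and was 8 without both 4 h DMM libraries. Of 14 iron genes 4 rose, with ferroportin and Blvrb the metal transporter of phagosomes Slc11a1 (1.03 ± 0.17) and the iron sensor Hfe (0.88 ± 0.16); the metalloreductase Steap3 fell by 1.02 ± 0.26 on the log2 scale, a call lost without control 4 (adjusted p = 0.116).

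Some targets of p53 and some cell cycle genes were higher in the 48 h set. Cdkn1a, the gene of the cell cycle inhibitor p21, stood at 35.2 to 76.6 CPM (median 45.2) in the 4 h set and at 164, 182, 243, 219.8 and 221 CPM in the 48 h set. The arms did not overlap, and the 4 h DMM libraries were the highest of their arm (1.95 ± 0.16, adjusted p = 2.36e-10). Of 15 tested genes of p53 and apoptosis 6 rose and 1 fell (3.19% and 2.53% of all genes), with a median of 0.37. Without both 4 h DMM libraries 5 rose and 1 fell, with a median of 0.11. Sesn1, a sestrin that restrains growth signalling, stood at 103 to 207 CPM (median 133) against 366, 326, 331, 368 and 438 CPM (1.38 ± 0.16, adjusted p = 1.75e-07), and cyclin G1 (Ccng1) rose by 1.25 ± 0.17. Trp53inp1, a stress-induced p53 target, rose by 1.38 ± 0.29. Bcl2l1, the gene of the survival protein BCL-XL, stood at 155 to 222 CPM (median 191) against 101, 111, 114, 82.6 and 89.7 CPM and fell without overlap (-0.93 ± 0.14, adjusted p = 2.84e-05). The glucose-regulated Txnip, which binds thioredoxin, stood at 56.4 to 246 CPM (median 110.0) against 366, 579.9, 523, 407 and 469.9 CPM, again with the 4 h DMM libraries highest in their arm (1.87 ± 0.17, adjusted p = 1.49e-08). Of 44 cell cycle genes 5 rose and none fell (median 0.25), among them cyclin A2, Ccna2 (0.68 ± 0.16, exons overlapping Exosc9). That count was 0 without control 4, 1 without succinate 2, 2 without succinate 1 or succinate 4, 3 without control 1, control 3, DMM 1 or DMM 4, 8 without DMM 2, and 7 without both 4 h DMM libraries.

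**Figure D4:**
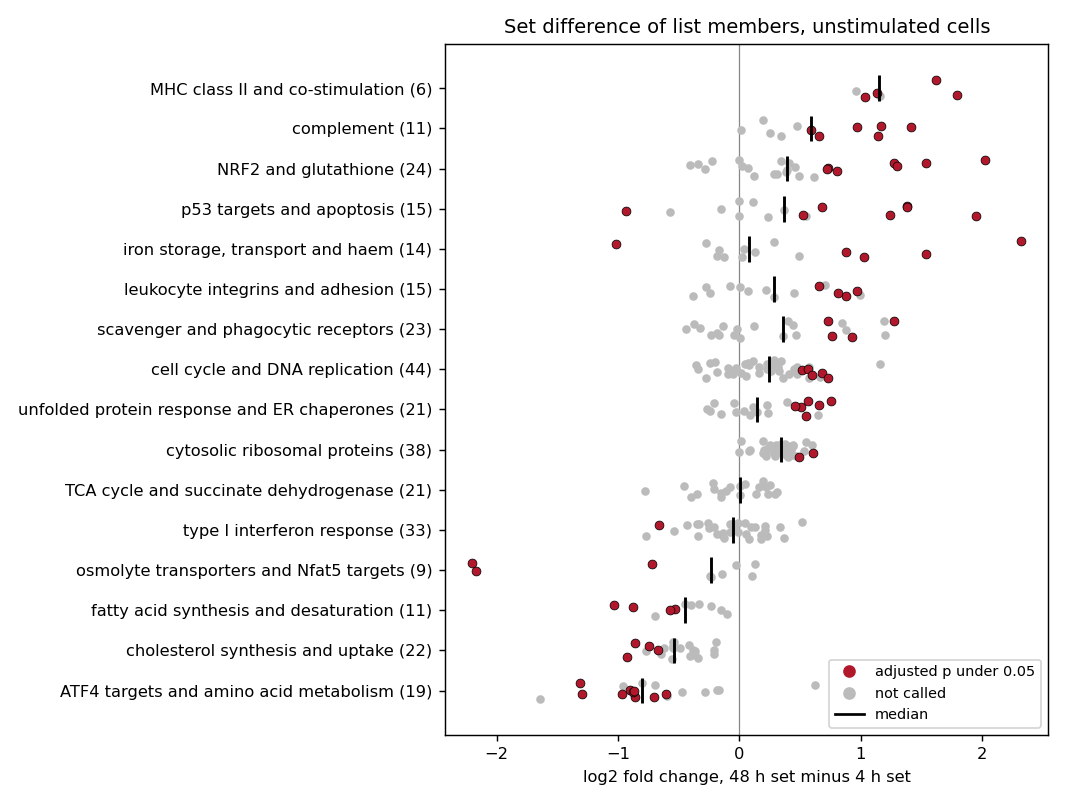
Log2 fold changes of the 48 h over the 4 h set for tested members of 16 lists (number tested in brackets); red points passed an adjusted p of 0.05, grey points did not, and black bars are medians. Medians run from 1.15 for MHC class II to -0.80 for ATF4 targets, with TCA cycle genes and type I interferon genes around 0.

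Differences in cholesterol synthesis genes depended on the DMM libraries, while the fatty acid synthesis list kept a negative median without them. With all 11 libraries 2.53% of all genes fell. All 22 tested cholesterol synthesis and uptake genes had a negative change (median -0.54), and 4 fell, among them the sterol desaturase Sc5d (-0.67 ± 0.17), the cyclase Lss (-0.93 ± 0.24) and the kinase Pmvk (-0.86 ± 0.27). Lss lost its call without control 1, control 4 or DMM 4 (adjusted p from 0.0527 to 0.0713) and Pmvk without any of 8 libraries (0.0628 to 0.23). The count was 2 without control 1, DMM 1 or control 4 and 1 without DMM 4. Without both 4 h DMM libraries none of 21 fell (median -0.05), and in DMM libraries alone 8 of 21 fell (median -1.38). Of 11 fatty acid synthesis genes 4 fell; the synthase Fasn stood at 166 to 304 CPM (median 216) in the 4 h set and at 116, 61.0, 72.2, 177 and 168 CPM in the 48 h set, with both DMM libraries lowest (-1.03 ± 0.22, adjusted p = 0.00909). Without both 4 h DMM libraries 1 of the 11 fell. The list's median was -0.45 with all 11 libraries and -0.33 without both 4 h DMM libraries or without any DMM library. The count of 4 was 2 when either 4 h control, either 4 h DMM library, succinate 1, DMM 2 or DMM 4 was left out, and 1 without control 4.

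A test of the set difference across control, DMM and succinate libraries called 11 genes (0.172% of genes tested, 445 at an unadjusted p under 0.05). Of these, 6 act in sterol or fatty acid synthesis and uptake. Insig1, which holds the sterol sensor in the endoplasmic reticulum, stood at 274 and 308 CPM in the 4 h DMM libraries and at 94.96 and 80.1 CPM in the 48 h DMM libraries. In controls it was at 189 and 220.4 CPM at 4 h and 210.4 CPM at 48 h, and with succinate at 172 and 267 CPM and 217 and 267 CPM. Its set difference was 0.04 in controls, -1.73 with DMM and 0.16 with succinate (adjusted p = 0.00673 for the difference between treatments). Fdps, the farnesyl diphosphate synthase, had 0.37 in controls, -1.51 with DMM and 0.56 with succinate (adjusted p = 0.00673). The isomerase Idi1, the methyl oxidase Sc4mol and the desaturase Scd2 had set differences of -1.71, -1.55 and -1.32 with DMM, and of 0.25, -0.16 and -0.23 in controls (adjusted p from 0.0233 to 0.0305). The scavenger receptor Stab1 had set differences of 1.13 in controls and 1.67 with succinate and of -0.17 with DMM (adjusted p = 0.0153); its exons overlap those of Nt5dc2. In the 4 h set its DMM libraries, at 799 and 909 CPM, already stood above control (374 and 419 CPM) and succinate (270.4 and 462.5 CPM). Wfdc17 and the predicted genes Gm9877, Gm15564 and Gm15662 were called as well. The count was 1 without succinate 4, 3 without control 1 or succinate 2, 4 without DMM 2, 5 without succinate 3, 18 without succinate 1 and 37 without DMM 3, and every one of the 11 genes lost its call without at least 1 library. The call of Insig1 was lost without DMM 2 (adjusted p = 0.0648), DMM 4 (0.0771) or succinate 4 (0.126). The control difference rests on 1 library at 48 h.

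Genes of lipid binding and export changed in both directions, where 3.19% of all genes rose and 2.53% fell. Of 12 lipid binding, lipoprotein and lipolysis genes 3 rose, Pla2g7, Cd36 and Pltp, and 2 fell, the droplet coat protein Plin2 (-0.53 ± 0.14, adjusted p = 0.0194) and the fatty acid carrier Fabp4 (-2.33 ± 0.67, adjusted p = 0.0325), the latter on 39 counts in the 4 h arm and 6 in the 48 h arm. Plin2 lost its call without control 3, succinate 1, control 4 or DMM 4 (adjusted p from 0.0523 to 0.151). Fabp4 lost it without control 1, control 3, DMM 1, succinate 2 or succinate 4 (0.0526 to 0.123), and without succinate 3 or control 4 it was too low to be tested. The count that fell was 0 without control 3, control 4 or both 4 h DMM libraries, 1 without control 1, DMM 1, DMM 4 or any succinate library, and 2 without DMM 2 or DMM 3. The phospholipase Pla2g7, which hydrolyses platelet-activating factor, stood at 43.4 to 185 CPM (median 97.8) in the 4 h set and at 112, 193, 189.9, 278 and 322 CPM in the 48 h set. The controls were lowest and the succinate libraries highest in both arms, which overlapped (0.97 ± 0.14, adjusted p = 1.46e-05). Of 11 cholesterol efflux and LXR target genes 2 rose, Abca1 and Apoc2, and none fell. The cholesterol exporter Abca1 (0.73 ± 0.17), the lipase cofactor Apoc2 (0.98 ± 0.18) and the phospholipid transfer protein Pltp (0.66 ± 0.15, exons overlapping Ctsa) rose as well. The macrophage elastase Mmp12 rose by 1.45 ± 0.15 and the cathepsins Ctsh and Ctsc by 0.81 ± 0.16 and 0.64 ± 0.14. Of 36 lysosome and proton pump genes these 2 rose and 3 fell (median -0.07), among them Ctss and the proton pump subunit Atp6v1a (-0.54 ± 0.14), whose call was lost without succinate 1 (adjusted p = 0.0681) or control 4 (0.0977). The count that fell was 0 without control 4, 1 without control 3, succinate 1 or succinate 2, and 5 without DMM 2; without both 4 h DMM libraries 4 rose and 2 fell.

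In other lists few or no genes passed the test, apart from the unfolded protein response. By edgeR none of 5 tested pro-inflammatory mediators passed the test, though all 5 changes were negative (median -0.52, 3 at an unadjusted p under 0.05), and 1 fell without DMM 3; Il1b, the gene of interleukin-1 beta, stood at 3.52 to 13.4 CPM (median 6.52) against 1.70 to 3.96 CPM (-1.43 ± 0.52, adjusted p = 0.108). Of 33 type I interferon genes 1 fell, Oas3 (-0.66 ± 0.18), where 2.53% of all genes fell. Its call was lost without succinate 1, 2, 3 or 4 or control 4 (adjusted p from 0.0588 to 0.123). The median of this list was -0.05. The count was 2 without DMM 3 or DMM 2, and 4 without both 4 h DMM libraries (median -0.17). None of 21 TCA cycle genes was called (median 0.00, 2 at an unadjusted p under 0.05). Of 21 genes of the unfolded protein response 6 rose and none fell (3.19% of all genes rose), with the degradation factor Herpud1 (0.75 ± 0.17). This count was 5 without both 4 h DMM libraries, 2 without DMM 1, control 4 or succinate 4 and 3 without control 3, succinate 1 or DMM 4. Of 16 glycolysis genes the aldolase Aldoc fell (-0.76 ± 0.17) and the isomerase Gpi1 rose, the latter call being lost without any of 8 libraries.

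The share of mitochondrially encoded transcripts differed between the arms, and the ribosomal protein share did not pass after adjustment. Mitochondrially encoded transcripts took 2.84% to 3.42% of counts in the 4 h set (median 3.15%) and 3.79%, 3.62%, 4.04%, 4.10% and 3.79% in the 48 h set. The arms did not overlap (exact permutation p = 0.00216, adjusted p = 0.00648), while none of the 14 tested mitochondrially encoded genes was called on its own by edgeR (median 0.21, 3 at an unadjusted p under 0.05); 1 was called without DMM 2 and 1 without both 4 h DMM libraries. Cytosolic ribosomal protein genes took 1.93% to 3.28% (median 2.71%) and 2.71% to 3.72% of counts (exact permutation p = 0.0498, adjusted p = 0.0996). Of 38 tested ribosomal protein genes 37 had a positive change and 2 were called, where 5.72% of all genes were called. This count was 16 without DMM 3, 13 without DMM 2, 1 without control 1 and 0 without any other single library. It was 11 without both 4 h DMM libraries and 21 without all DMM libraries.

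The same set difference was measured in 9 LPS-stimulated libraries, which share no library with the unstimulated ones. Of these, 3 received LPS alone (2 of the 4 h set, 1 of the 48 h set), 4 DMM before LPS (2 of each set) and 2 succinate before LPS (1 of each set), and treatment was a covariate. The library labelled LPS 48 h replicate 1 was left out: it held 38 counts of the LPS-induced serum amyloid gene Saa3, against 41149 to 132716 in the other 9. There 199 of 6806 genes were called (2.92%), 110 higher (1.62%) and 89 lower (1.31%); with the left-out library it was 21. Of the 366 genes called in unstimulated cells 333 were tested there, and 258 had a change of the same sign (77.5%, against 61.2% of all genes tested in both). Called in both in the same direction were 41 genes, 11.2% of the unstimulated and 20.6% of the stimulated list, and 3 were called in opposite directions. The genes shared included Tmem176b (2.66 ± 0.23 with LPS, adjusted p = 3.44e-10), Ms4a7 (1.93 ± 0.33), Aif1 (2.43 ± 0.25), Txnip (1.62 ± 0.21), C1qa (2.46 ± 0.36), Sesn1 (2.11 ± 0.35) and Slc6a12 (-2.29 ± 0.30). Spp1 had -1.38 ± 0.41 with LPS and did not pass the test (adjusted p = 0.0573). Time and anything else that differed between the sets cannot be told apart in these libraries either.

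**Figure D5:**
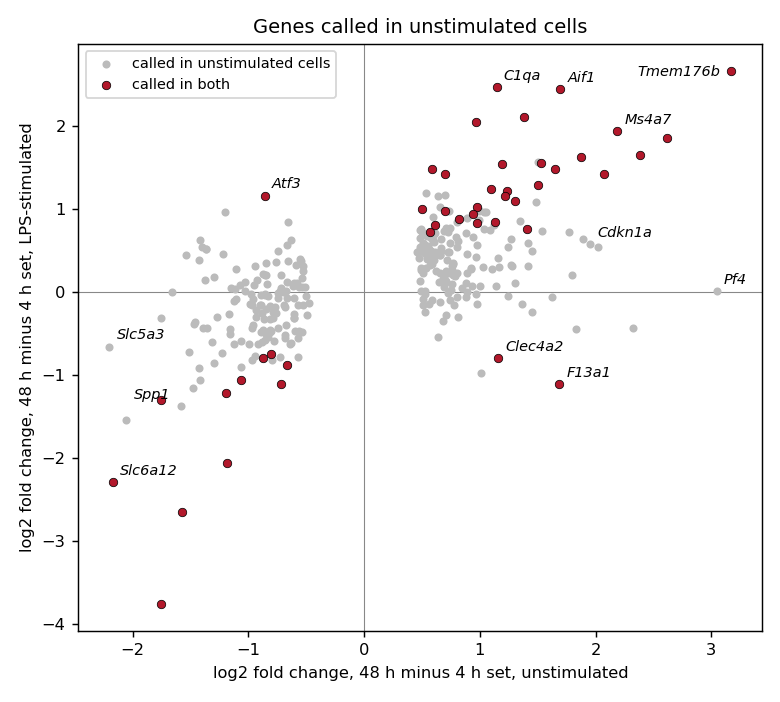
Log2 fold changes of the 48 h over the 4 h set in unstimulated (horizontal axis) and LPS-stimulated libraries (vertical axis), for the 333 genes called in unstimulated cells and tested in both. Red points were called in both; 41 lie in the quadrants of equal direction, and Atf3, Clec4a2 and F13a1 in the others.

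A test of the difference between unstimulated and stimulated cells, in 1 fit of 20 libraries, called 43 of 7651 genes (0.562%), 21 with a higher and 22 with a lower set difference in unstimulated cells. Atf3 had a set difference of -0.83 ± 0.20 in unstimulated and 1.16 ± 0.20 in stimulated cells (adjusted p = 4.76e-05 for the difference). Pf4 had 3.07 ± 0.35 in unstimulated and 0.09 ± 0.30 in stimulated cells (adjusted p = 0.000225). F13a1, the transglutaminase of clotting, had 1.70 ± 0.35 in unstimulated and -1.11 ± 0.26 in stimulated cells (adjusted p = 0.000238). Atf3 and F13a1 were called in each kind of cell, in opposite directions. The class II genes H2-Ab1 (difference 1.70 ± 0.31, adjusted p = 0.00109) and Cd74 (1.08 ± 0.27, adjusted p = 0.0402) had a higher set difference in unstimulated cells. The other called class II genes, H2-Aa (1.67 ± 0.56, adjusted p = 0.239) and H2-DMa (0.11 ± 0.49, adjusted p = 0.994), did not pass this test. The inhibitor Cdkn1a (1.39 ± 0.31, adjusted p = 0.0158) and ferroportin, Slc40a1 (2.80 ± 0.66, adjusted p = 0.0285) also had a higher set difference in unstimulated cells. Id2 had a lower one (-1.85 ± 0.34 for the difference, adjusted p = 0.00109). For the fibrinogen-like Fgl2 and the interferon-induced Ifit2 the difference was -4.05 ± 0.40 and -2.63 ± 0.37 (adjusted p = 8.25e-09 and 8.07e-05), with a set difference of 4.05 ± 0.27 and 2.70 ± 0.27 in stimulated cells. With the left-out library the count was 13, and with DESeq2 55.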

How the data were processed

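Bulk RNA was measured with a variation of SmartSeq2 in all 21 libraries. The authors deposited whole-number counts per gene symbol for 34573 genes; the submitters' processing notes name TopHat2, Bowtie, HTSeq and edgeR, with no version there; the genome build, annotation and strand setting are not stated in the labels. Reads carry no molecular identifiers, so PCR copies cannot be told from molecules. The 11 unstimulated columns were matched to treatment by name and to a set by number. Genes were kept by filterByExpr (minimum count 10, minimum total 15) and fitted with TMM scaling in edgeR 4.0.16 (robust quasi-likelihood, treatment plus set, 7 residual degrees of freedom), with Benjamini-Hochberg adjustment at 0.05. DESeq2 1.42.0 and limma 3.58.1 gave alternatives, in R 4.3.3; fits were tested on simulated data. Library shares were compared by exact permutation. Members and lists were chosen with earlier results of these data known. Named genes were the 15 highest and 15 lowest called changes without overlap and at least 10 CPM in the higher arm, up to 4 called genes per list, defining markers, and the leading interaction genes. C3, C1qb, Sars, Mthfd2, Trp53inp1, Steap3, Asns, Fabp4, Ccr2, Blnk, the other interaction genes and the genes printed at 0 counts lie outside this rule and were chosen after their values were seen. Exon overlaps were read from GENCODE M21. The numbers of the columns were not used to pair libraries in the main fit. Some items are not reported here.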

Additional observations from a re-analysis of the deposited data

Results flagged for a closer look

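In 6 of 200 arms tested, 1 library stood far from the others of its arm; chance alone flags about 1 in 20 such arms. In the 4 h set DMM 3 stood high for Ms4a7 (296 CPM, next 202 CPM), Sesn1 (207 CPM, next 141 CPM) and Fgl2 (24.8 CPM, next 12.0 CPM), and control 1 stood high for Slc38a2 (333 CPM, next 227 CPM). In the 48 h set control 4 stood low for Hfe (56.0 CPM, next 64.3 CPM) and succinate 2 high for Csf2rb (114 CPM, next 60.4 CPM).

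The set difference differed between control, DMM and succinate libraries for 11 genes. The smallest adjusted p-values by edgeR were those of Insig1, Gm9877 and Fdps (0.00673 each), Stab1 (0.0153) and Gm15564 (0.0202). Gm9877, a predicted gene, had a set difference of 3.59 in controls, 0.64 with DMM and 0.29 with succinate, and lost its call without control 1 (adjusted p = 0.0665).

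Between unstimulated and stimulated cells the set difference differed for 43 genes. It was lower in unstimulated cells for Fgl2 (-4.05), Atf3 (-1.995) and Ifit2 (-2.63), and higher for Pf4 (2.98) and F13a1 (2.82).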

How the results depend on the processing

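The set difference, 366 genes, was called for 219 by DESeq2, 209 in control libraries alone, 39 in DMM libraries alone, 167 without control libraries, and 66 in a model of all 21 libraries. Leaving out 1 library gave 186 (without control 4) to 522 (without DMM 3). With the column number as a replicate block the count was 495 (consensus correlation -0.0715). The difference between the numbers of a set, taken over genes within each treatment, correlated between treatments at -0.0214 to 0.137. Whether the numbers pair libraries cannot be settled from these values. The difference between treatments, 11 genes, was 62 without a filter on low counts and 1 to 37 without 1 library. The stimulated comparison, 199 genes, was 21 with the library labelled LPS 48 h replicate 1, and the test of unstimulated against stimulated cells, 43 genes, was 13. The ribosomal share differed by 0.629 percentage points (exact permutation p = 0.0498 before adjustment), and by 0.597 with TMM scaling (p = 0.0887). The mitochondrially encoded share differed by 0.716 percentage points (exact permutation p = 0.00216 before adjustment), and by 0.663 with TMM scaling (p = 0.0173). The cause of these shifts was not tested. Of 104 called named genes none changed direction under 28 settings. They were chosen as called in the libraries that most settings refit, so a kept direction says little beyond the main fit. DESeq2 called 83 of them and the model of all 21 libraries 35. In DMM libraries alone 22 of the 100 tested were called. Csf1r, which was not called, turned to -0.03 (-0.0348) in controls alone. The DMM minus control difference of Gm15662 turned to -0.20 without control 3, -0.02 without DMM 1 and -0.48 without DMM 4, within a range of -0.48 to 0.48 without 1 library. The depth, 662186 to 1223856 counts, leaves genes of few counts untested, and the 48 h controls rest on 1 library.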
